A study of Mus musculus with 4 samples.

Results

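The reads described here carried a single deletion of 1 or 2 bp that touched the Cas9 cut, in pools of edited mouse embryonic stem cells (mESCs). They were selected by their alignment alone. A read belonged to the set when it had 1 internal gap of 1 or 2 bases in the read, none in the reference and no mismatch within 10 bp of the gap. The gap also had to start at, end at or span the cut in at least 1 of the placements that leave the same sequence. At each site 3 deletions met this definition, 6 of the 1587 distinct single deletions that touched a cut with no mismatch beside them. They accounted for 312300 of 1636791 aligned reads and for 5856 of 76510 allele rows, because mismatches further away split each deletion over many rows.

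All libraries came from E14 mESCs, a line of strain 129/Ola, lipofected with a pX plasmid that expressed Cas9 nuclease and 1 sgRNA and then selected with puromycin or for GFP. The sgRNA of Site 7 or of Site 9 was the only labelled difference between the groups, and each site had 2 replicate libraries. The cells were pools and not clones, untreated libraries were not analysed here, and nothing in the labels says whether the replicates were separate cultures, so the spread between them may be technical. The libraries held 380601 to 447620 aligned reads. Edited reads, taken here as reads with any insertion or deletion that spanned the cut or came within 10 bp of it, made up 99.0% and 98.6% of the Site 7 libraries and 65.5% and 61.5% of the Site 9 libraries. The amplicons were 246 bp at Site 7 and 208 bp at Site 9. Alleles that lost a primer site gave no read, so these shares leave out such larger deletions, which the paper found at both sites. Shares below are percentages of edited reads unless another base is named.

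Double strand breaks made by Cas9 are rejoined mainly by non-homologous end joining (NHEJ), in which the ends are held together, trimmed or filled and ligated, and a loss or gain of very few bases is its typical trace. Microhomology-mediated end joining resects the ends further and usually leaves longer deletions. Cas9 mostly leaves blunt ends, and a cut that is displaced on one strand leaves a short overhang. In a run of identical bases, an alignment cannot tell which of the bases was lost.

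Both cuts fell inside a run of GGG on the plus strand, after its first G, with 1 base of the run to the left and 2 to the right. In mm9, the Site 7 protospacer is the minus strand of chr16:92520182-92520201, so the PAM is to the left of the cut on the plus strand. The Site 9 protospacer is the plus strand of chr6:92370105-92370124, and its PAM is to the right. The guide targets are shown 5′ to 3′ with the PAM in capitals, because they fix which side of the cut is called the PAM side.
Site 7 target: gtccaactgaaaacgcccttAGG
Site 9 target: taaaatattcacacgtgggcAGG

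The Site 7 cut lies between 92520184 and 92520185, in an intron of Clic6 (ENSMUSG00000022949.3, 92485981 to 92541488) and 8120 bp from the nearest exon. The label names Runx1, and the paper lists Site 7 among its targets at the Runx1 locus. The Site 9 cut lies between 92370121 and 92370122. It falls within Prickle2 (ENSMUSG00000030020.7, 92320886 to 92656139), in an intron and 15 bp from the exon at 92370137 to 92370340. Clic6 encodes a chloride intracellular channel protein and Prickle2 a planar cell polarity protein. The 6 deletions are shown on the plus strand in windows of 42 bp (chr16:92520164-92520205 and chr6:92370101-92370142), with the bases of the GGG run that were kept in capitals.
Site 7, reference: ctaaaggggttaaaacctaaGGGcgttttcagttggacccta
Site 7, deletion of G: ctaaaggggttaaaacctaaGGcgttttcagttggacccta
Site 7, deletion of AG: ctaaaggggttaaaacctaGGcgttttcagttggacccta
Site 7, deletion of GG: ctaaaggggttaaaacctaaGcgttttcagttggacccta
Site 9, reference: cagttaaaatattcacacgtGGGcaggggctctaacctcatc
Site 9, deletion of G: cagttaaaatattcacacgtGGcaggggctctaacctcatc
Site 9, deletion of TG: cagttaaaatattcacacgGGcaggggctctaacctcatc
Site 9, deletion of GG: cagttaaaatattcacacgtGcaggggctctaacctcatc

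The deletion of G has 3 equivalent placements at each site, of which 2 touch the cut, one from each side, so it cannot be given to a side. The deletion of GG has 2 equivalent placements, and both touch the cut. It takes either 1 base from each side or the 2 bases to the right, which is the PAM-distal side at Site 7 and the PAM side at Site 9. The third deletion at each site removes the base before the run together with its first G. At Site 7 this is AG at 92520183 to 92520184, on the PAM side and with a single placement. At Site 9 it is TG at 92370120 to 92370121, on the PAM-distal side. The TG deletion has 2 equivalent placements, and the deposited alignment uses the other one, GT at 92370119 to 92370120, which does not touch the cut. Because a G precedes the T, the TG deletion leaves GGG in place. More than 1 equivalent placement means that bases repeat at the ends of the gap, as in a microhomology. This holds for G, GG and TG but not for AG, and whether it played a part was not tested.

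The 3 deletions together were more frequent at Site 7 than at Site 9. They made up 32.2% (95% Wilson interval 32.1 to 32.4%) and 30.2% (30.1 to 30.4%) of edited reads in replicates 1 and 2 of Site 7, a mean of 31.2% ± 1.44 (SD, n = 2). At Site 9 they made up 12.7% (12.6 to 12.8%) and 10.9% (10.8 to 11.1%), a mean of 11.8% ± 1.26 (SD, n = 2). The sites differed by 19.4 percentage points, or 2.64-fold, which is larger than the spread between replicates. Tested two-sided by exact permutation of the 4 libraries, the difference had p = 0.333, the smallest it can give, so this test cannot reach 0.05 with 2 libraries against 2. All 12 comparisons between the sites in this section gave that p, which Benjamini-Hochberg adjustment leaves at 0.333, and in each of them the libraries of the sites did not overlap. The 12 are not independent, since the 1 bp share and the share of G are the same values counted under both names. Others share reads, and the share called unmodified follows from the deposited placement. Reads made by PCR, with no molecular identifiers, are not independent molecules, and all intervals cover counting error only.

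The deletion of G was the most abundant of the 3 in every library. At Site 7 it was found in 69215 reads of replicate 1 and 66732 of replicate 2, or 17.6% and 16.5% of edited reads. At Site 9 it was found in 23540 and 15778 reads, or 8.03% and 6.74%. The means were 17.0% ± 0.787 and 7.39% ± 0.914 (SD, n = 2 each), 2.30-fold apart. The Site 7 libraries were the higher ones, without overlap.

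The 2 bp deletions differed more between the sites, by 3.20-fold, with means of 14.2% ± 0.653 and 4.44% ± 0.349 (SD, n = 2 each). Most of this difference lay in the deletion that takes the base before the run. At Site 7 the deletion of AG was found in 37323 and 35093 reads, or 9.48% and 8.66%. Its counterpart at Site 9, the deletion of TG, was found in 2926 and 2612 reads, or 0.998% and 1.12%. The deletion of GG, the same bases at both sites, was closer. It made up 5.19% and 5.09% at Site 7 (20435 and 20616 reads) and 3.69% and 3.08% at Site 9 (10818 and 7212 reads). The means for GG were 5.14% ± 0.0730 and 3.39% ± 0.432 (SD, n = 2 each), 1.52-fold apart.

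**Figure D1:**
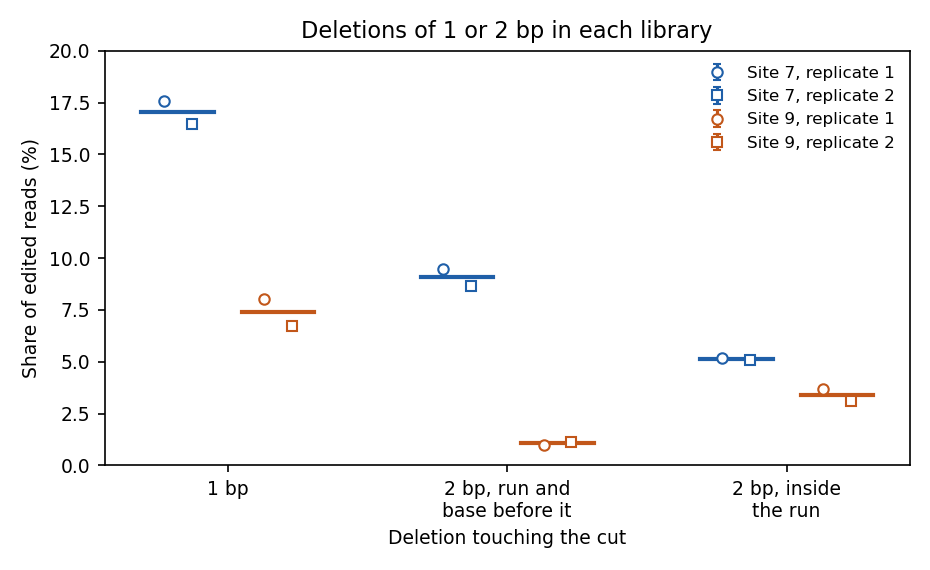
Share of edited reads (%, y axis) of each deletion touching the cut (x axis) in the 4 libraries. Circles and squares are replicates 1 and 2 with 95% Wilson intervals, which are smaller than the symbols, and bars are site means. The 1 bp deletion is highest at both sites, and the order of the 2 bp deletions is opposite at the 2 sites.

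The order of the 2 bp deletions was thus opposite at the sites. At Site 7 the deletion of AG exceeded that of GG by 1.83-fold in replicate 1 and 1.70-fold in replicate 2. At Site 9 the deletion of GG exceeded that of TG by 3.70-fold in replicate 1 and 2.76-fold in replicate 2. GG made up 35.4% and 37.0% of the reads with a 2 bp deletion at Site 7, against 78.7% and 73.4% at Site 9. The means of 36.2% ± 1.15 and 76.1% ± 3.75 (SD, n = 2 each) were 39.9 percentage points apart (exact permutation test, p = 0.333). The deletions of AG and TG remove different bases and lie on opposite sides relative to the PAM. They also differ in equivalent placements, with 1 for AG and 2 for TG. Base, side and placements cannot be told apart with these 2 sites.

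The split by size varied less than the shares themselves. Deletions of 1 bp made up 54.5% of the reads in both Site 7 libraries (95% Wilson intervals 54.2 to 54.8% in each). At Site 9 they made up 63.1% (62.6 to 63.6%) and 61.6% (61.0 to 62.2%). The means differed by 7.88 percentage points, more than the SDs of 0.00724 and 1.07. For every 100 reads with the deletion of G there were 29.5 and 30.9 with the deletion of GG at Site 7, and 46.0 and 45.7 at Site 9. There were 53.9 and 52.6 with AG at Site 7, and 12.4 and 16.6 with TG at Site 9.

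**Figure D2:**
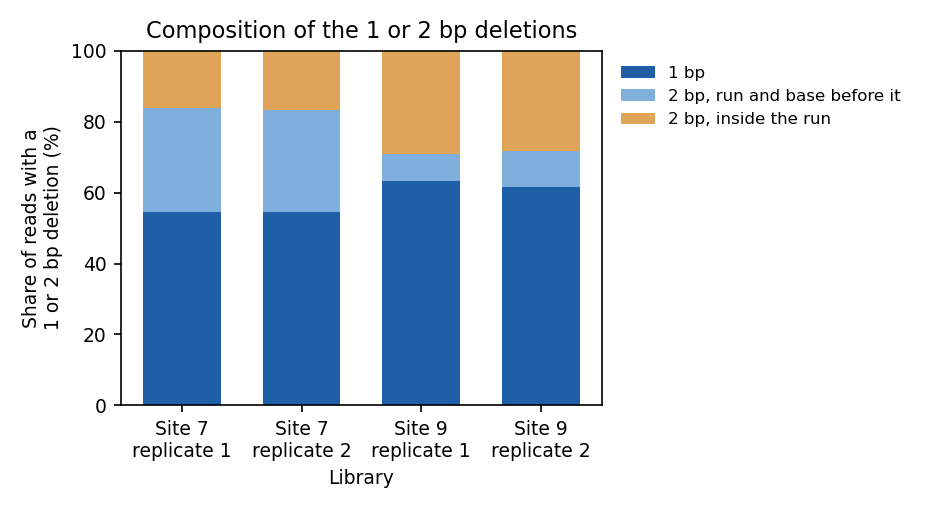
Reads with a 1 or 2 bp deletion touching the cut, split by deletion (%, y axis) in each library (x axis). Each bar adds up to all such reads of the library, and the 1 bp deletion takes 54.5% in both Site 7 bars and 63.1% and 61.6% in the Site 9 bars.

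The replicates of a site differed by more than counting error for most of the deletions. Replicate 2 had 0.937 times the share of replicate 1 for G at Site 7 and 0.913 times for AG. For GG at Site 7 the factor was 0.980, and its intervals overlapped (5.12 to 5.26% and 5.02 to 5.15%). At Site 9 the factors were 0.839 for G and 0.835 for GG. The deletion of TG was the exception in direction, with 1.12 times the share in replicate 2 (0.963 to 1.04% and 1.07 to 1.16%).

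A gain of 1 base at the same run, in reads with no other gap and no mismatch within 10 bp, was set beside the loss of G after the values had been seen. Such insertions made up 1.96% and 1.83% of edited reads at Site 7 and 7.54% and 6.71% at Site 9. Insertions were thus more frequent at the site where the deletion of G was less frequent. Within each site, however, replicate 1 had the higher share of both, so the opposite order rests on the comparison of the sites alone. At Site 7 there were 8.99 and 9.01 reads with the 1 bp deletion for each read with a 1 bp insertion. At Site 9 there were 1.06 and 1.00. In Site 9 replicate 2 the intervals of the deletion (6.64 to 6.84%) and of the insertion (6.61 to 6.81%) overlapped, and in replicate 1 they did not (7.93 to 8.13% and 7.45 to 7.64%). The ratios averaged 9.00 ± 0.0152 and 1.03 ± 0.0431 (SD, n = 2 each; exact permutation test, p = 0.333).

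Deletions of 3 bp lie just outside the definition. Among single deletions of 1 to 10 bp that touched the cut, 1 and 2 bp were the most frequent sizes in both Site 7 libraries, and 3 bp made up 5.24% and 4.57%. At Site 9 8 bp was the most frequent size, with 8.72% and 8.97%, above the 1 bp deletion in both libraries. The 8 bp share sums 5 distinct deletions in each library, whereas the 1 bp share is 1 deletion. Deletions of 3 bp made up 2.13% and 1.79% there. The most abundant 3 bp deletion removed AAG at Site 7 (1.99% and 1.96%) and GTG at Site 9 (1.86% and 1.53%). AAG ends at the cut from the left, whereas loss of GTG leaves the same sequence as loss of TGG across the cut and cannot be given to a side. These shares lay closer together than those of AG and TG, but the libraries of the sites did not overlap, and the difference was not tested. At Site 9 the deletion of GTG was more frequent than that of TG, while at Site 7 the deletion of AAG was less frequent than that of AG. Loss of the whole GGG run was found in 1.37% and 1.31% at Site 7 and in 0.0369% and 0.0923% at Site 9.

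**Figure D3:**
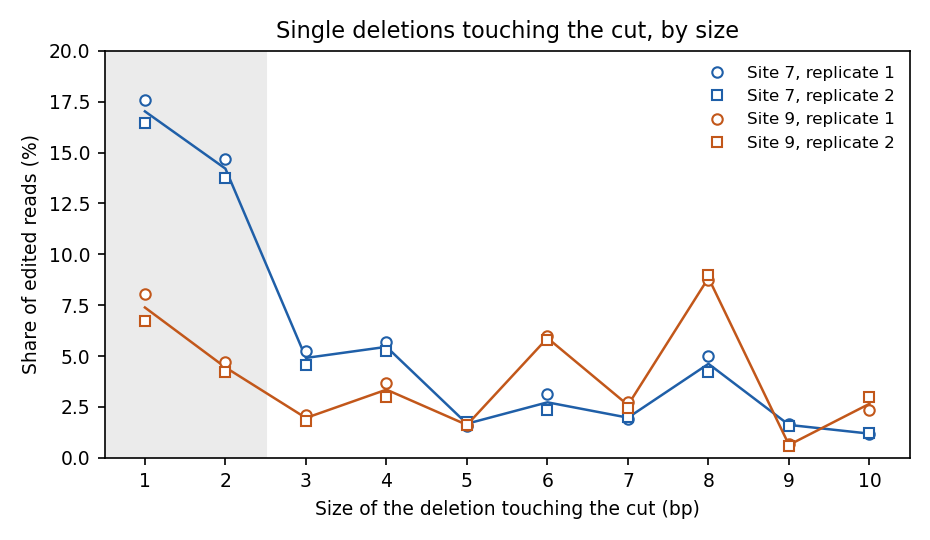
Share of edited reads (%, y axis) of single deletions touching the cut, by size from 1 to 10 bp (x axis). Circles and squares are replicates 1 and 2, lines join site means, and the shaded sizes are 1 and 2 bp. Site 7 is highest at 1 bp, whereas Site 9 is highest at 8 bp.

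Deletions of 1 or 2 bp fell off steeply away from the cut. Those within 5 bp that did not touch it summed to 1917 and 2291 reads at Site 7 and to 1216 and 880 at Site 9. The deletions that touched the cut were 66.2 and 53.4 times as many at Site 7, and 30.7 and 29.1 times as many at Site 9. The most abundant 1 bp deletion just outside was the base before the run at each site. It was A at Site 7, with 1137 and 1388 reads (0.289% and 0.342%), and T at Site 9, with 997 and 595 reads (0.340% and 0.254%). The most abundant 2 bp deletion just outside was GC at Site 7, with 421 and 597 reads, and, by the sum of both libraries, CA at Site 9, with 201 and 76. In Site 9 replicate 2 alone the deletion of GC was more abundant, with 188 reads, and it was not found in replicate 1, where 3 reads would be 0.00102% of edited reads. A 2 bp deletion that starts 13 bp to the left of the Site 9 cut likewise had 88 reads in replicate 2 only.

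**Figure D4:**
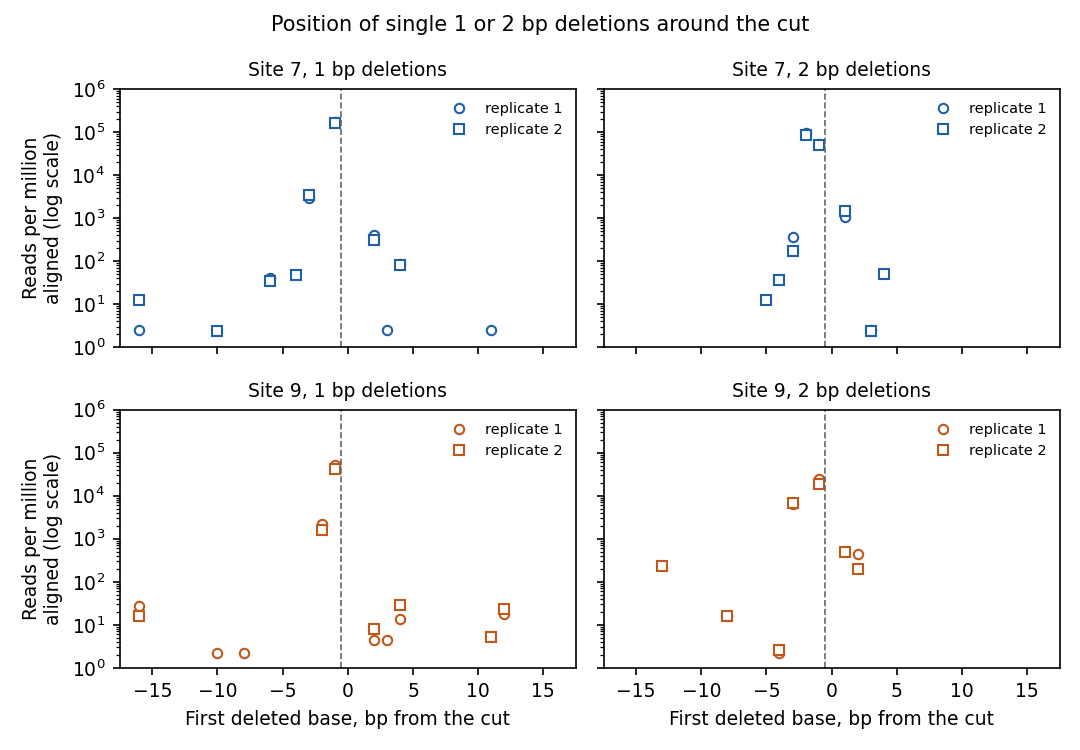
Reads per 1000000 aligned reads (y axis, log scale) with a single deletion of 1 bp (left) or 2 bp (right), by the position of its first deleted base in the deposited placement relative to the cut (x axis, bp, with 0 the first base to the right). Circles and squares are replicates 1 and 2, positions without reads are not drawn, and the dashed line is the cut. The highest points lie next to the cut at both sites, and for 2 bp deletions at Site 9 the lower of the 2 leading points, at -3, is the deletion of TG.

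Runs of identical bases elsewhere in the same amplicons gave the background of 1 bp losses. The run at the cut lost 1 base in 174105 and 162356 reads per 1000000 aligned reads at Site 7 and in 52589 and 41456 at Site 9. Counted in the same way, the runs of 2 identical bases more than 20 bp from the cut lost 1 base in at most 4.87 reads per 1000000 at Site 7 (20 runs) and 15.8 at Site 9 (21 runs). The only run of 3 at that distance at Site 9 reached 4.47 and 15.8, and the 7 such runs at Site 7 at most 5.03. Nearly every Site 7 read has an edit at the cut, and counting only reads with a single gap leaves out losses elsewhere in those reads. When any read was counted whatever its other gaps, the highest run of 3 at Site 7 reached 584 and 494 reads per 1000000, and the run at the cut was still 324 and 351 times higher. At Site 9 the run of 3 then reached 26.8 and 36.8, and the run at the cut was 2132 and 1264 times higher.

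The program's own call of modified or unmodified split the 6 deletions cleanly. The deletions of G, AG and GG were called modified in every read, whereas the deletion of TG was called unmodified in every read, 2926 in replicate 1 and 2612 in replicate 2 of Site 9. These were 7.85% (95% Wilson interval 7.58 to 8.13%) and 10.2% (9.84 to 10.6%) of the reads with a 1 or 2 bp deletion at the Site 9 cut, and 1.82% and 1.72% of all Site 9 reads that the program left unmodified. At Site 7 the number was 0 of 126973 and 0 of 122441, where 3 reads would be 0.00236% and 0.00245%. Each of the Site 7 deletions touches the cut in its deposited placement. The call followed the deposited placement. Among reads with a single deletion of any size and no substitution attributed to the cut, all 1052030 whose deposited gap touched the cut were called modified, and all 36433 whose gap did not were called unmodified. Deletions that touched the cut only in another placement were found in 3176 and 2697 reads at Site 9, of which TG made up 92.1% and 96.8%. At Site 7 there were 5330 and 4628 such reads, none of them with a 1 or 2 bp deletion.

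Mismatches more than 10 bp from the deletion played no part in the definition and were counted in the same reads. They were found in 4.63% and 5.08% of these reads at Site 7 and in 4.81% and 4.18% at Site 9. Reads without any insertion or deletion had them in 5.52% and 4.90% at Site 7 (3675 and 5591 reads) and in 4.23% and 4.20% at Site 9. The deletion of GG in Site 9 replicate 1 stood apart, with 6.62% (95% Wilson interval 6.17 to 7.10%) against 3.98% for G (3.74 to 4.24%) in the same library and 4.19% for GG in replicate 2. A mismatch 28 bp to the left of the cut was found in 132 of these reads, or 1.22%. The most frequent distant mismatch of any other deletion, in any library, was found in at most 0.345% of its reads. In each library the most abundant row of every deletion had no mismatch at all.

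The definition left out reads with the same deletions and a mismatch within 10 bp, which were 6316 and 5583 at Site 7 (4.74% and 4.36% of the reads with or without such a mismatch) and 2999 and 2159 at Site 9 (7.44% and 7.78%). It also left out reads with another gap elsewhere, 3045 and 3214 at Site 7 and 1004 and 955 at Site 9.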

How the data were processed

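Amplicons spanning 2 Cas9 targets were sequenced from edited mESC pools, in 2 replicate libraries per site. The authors trimmed the reads (Trim Galore 0.3.1, per the submitters' processing notes) and ran CRISPResso, which aligned each read to its amplicon and collapsed identical alignments into allele rows. Its settings were not given in the sources used here. The deposited counts give how many reads each allele had, without normalization. The deposited percent is that count as a share of all aligned reads and was used only to check the counts. The deposited numbers of bases deleted, inserted and mutated that the program attributes to the cut are in base pairs, and they and the modified or unmodified call were used only where the text speaks of the program's call. Because such calls depend on where a gap is placed, every gap was read again from the aligned sequences, and all equivalent placements were listed. PCR before sequencing can favour some alleles, and no molecular identifiers were given.

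Gaps at alignment ends were ignored. The cut was taken as 3 bp into the protospacer from the PAM. Amplicons were matched exactly to the mm9 genome, and each had 1 match. Depth was 380601 to 447620 aligned reads per library, and 3 reads in edited reads, the floor used for a count of 0, were 0.000740 to 0.00128%. Shares have Wilson intervals at 95%. Sites were compared by an exact two-sided permutation test over libraries. All 6 deletions are named. Of the deletions just outside the definition, the most abundant of 1 bp and of 2 bp within 5 bp of the cut and the most abundant of 3 bp touching it are named for each site, and the GC deletion at Site 9, the 2 bp deletion 13 bp away, the GGG deletions and the 8 bp class were picked after their values were seen. The planned comparison of the PAM-side share of one-sided 2 bp deletions was not made, because each site has 1 such deletion, on a side that its sequence fixes. The definition, the deletions and the tests were chosen with earlier results of these data known. Alternatives changed the denominator, the mismatch filter, the placement, a minimum of 10 reads per row, the program's call and the replicates used. The parser was tested on 4000 simulated alleles, of which 4000 were read as made. Python 3.11.15, pandas 2.3.3, SciPy 1.17.1 and NumPy 2.4.6 were used.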

Additional observations from a re-analysis of the deposited data

Results flagged for a closer look

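The order of the 2 bp deletions went opposite ways at the sites in every library. The deletion of the base before the run with its first G, minus the deletion of GG, was 4.29 and 3.57 percentage points of edited reads at Site 7 and -2.69 and -1.96 at Site 9. The difference of the means, Site 9 minus Site 7, was -6.26 percentage points (exact two-sided permutation test, p = 0.333, the smallest it can give), and whether it follows the base, the side of the PAM or the sequence around the cut was not tested.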

How the results depend on the processing

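None of the 6 differences between the sites changed direction under the alternatives, and the exact tests cannot reach 0.05 with this number of libraries. Site 9 minus Site 7 ranged from -23.3 to -18.4 percentage points for all 1 and 2 bp deletions (-20.4 to -18.4 when 1 replicate was left out), from -12.1 to -9.10 for 1 bp (-10.3 to -8.99) and from -11.2 to -9.32 for 2 bp (-10.2 to -9.30). It ranged from 6.30 to 14.1 points for the 1 bp share of these reads (7.12 to 8.63) and from 36.8 to 63.8 for the GG share of 2 bp reads (37.2 to 42.5). With the deposited placement alone the deletion of TG no longer touched the cut. The share called unmodified, 9.03 points higher at Site 9 (7.85 to 10.2), then became 0 by construction, and at Site 9 the 2 bp share fell to 3.39% and GG became 100% of 2 bp reads. As a share of all aligned reads the Site 9 total was 7.53%, and as a share of simple deletions touching the cut, a base chosen after seeing the data, the totals were 38.0% at Site 7 and 17.7% at Site 9. The highest run of 2 elsewhere had 0 and 2 reads at Site 7, and with both counts set to 3 reads the run at the cut was 23072 and 22244 times higher, a mean of 22658. At Site 9 it was 5885 and 2630 times higher, a mean of 4257 that drops to 2630 without replicate 1. Without the mismatch filter the Site 7 value was 23779, and with any read counted, an alternative chosen after seeing the data, the means were 1703 at Site 7 (1028 and 2378 in the libraries, and so 1028 without replicate 2) and 1651 at Site 9 (1827 and 1475), since losses elsewhere in edited reads then enter the background.

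The replicate numbers give 2 pairs across the sites, and deviations of same-numbered libraries from their site means had a correlation of -0.79 over 5 quantities. These quantities overlap in their reads, and the sign does not mean that same-numbered libraries deviated in opposite directions. The shares of all 1 and 2 bp, of 1 bp and of 2 bp deletions were higher in replicate 1 at both sites. So was the 1 bp share of these reads. Only the GG share of 2 bp reads went opposite ways, with 35.4% and 37.0% at Site 7 and 78.7% and 73.4% at Site 9. With the replicate block, an exact sign-flip permutation test left the difference for all 1 and 2 bp deletions at -19.4 points with p = 0.5, the smallest it can give. The paired, unpaired and crossed tests called 0, 0 and 0 of the 6 differences. The comparison of PAM-side shares gave no value under any alternative.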
